A study of Mus musculus with 12 samples.

Results

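The genes described here are 10 genes of the histone H3 lysine 9 (H3K9) methylation and heterochromatin protein 1 (HP1) system: Trim28, Setdb1, Atf7ip, Suv39h1, Suv39h2, Ehmt1, Ehmt2, Cbx1, Cbx3 and Cbx5. They were chosen by name, with earlier results of these data known, and the rule itself uses no value of these libraries. All 10 were found among the 43346 genes of the deposited table, and all 10 were among the 17148 genes that passed the filter on low counts. The members lie on chromosomes 2, 3, 6, 7, 11, 15, 17 and X, and none lies on chromosome 13, the chromosome exchanged in this study.

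H3K9 methylation marks compact, silent chromatin. Methyltransferases write it, and HP1 proteins bind it through their chromodomain and bring in further methyltransferase, by which the mark can spread and be kept through cell division. In embryonic stem cells the pathway is known for silencing endogenous retroviruses, where KRAB zinc finger proteins bound to DNA recruit the corepressor TRIM28, which in turn brings in SETDB1 and HP1, and for packing the repeats around centromeres, where the SUV39H enzymes act.

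RNA of mouse embryonic stem cells was sequenced in 12 libraries, 3 per group in 4 groups. B6 is the inbred strain C57BL/6J and D2 is the inbred strain DBA/2J. B6-13D2 is the congenic strain B6.D2-(rs30079041-rs51756099)/Bakr, which carries a D2 segment of chromosome 13 on the B6 background. D2-13B6 is the reciprocal congenic strain D2.B6-(rs29224292-rs13469455)/Bakr, with a B6 segment on the D2 background; the series text gives another marker for the end of that segment. All groups grew in medium with 15% serum, LIF and the inhibitors PD0325901 (of MEK) at 1 µM and CHIR99021 (of GSK3) at 3 µM, and no group was left without them. The protocol describes separate cultures of 1 cell line per strain, so strain and line cannot be told apart. On that description, p-values measure the spread between such cultures. The labels conflict in places: B6 replicate 3 has another line number than B6 replicates 1 and 2, the D2 line number differs between title and cell line field, and the titles call the samples technical replicates. If the titles are right, p-values measure technical spread, and the spread in B6 may also hold a difference between lines. The study's title names heterochromatin as regulated in trans; with the reciprocal lines, an expression difference can be set beside the origin of the segment on each background.

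Library totals ran from 22184196 to 36411799 expected counts. All 10 markers of embryonic stem cells were detected in every group, with summed levels of 4387 to 4562 CPM (counts scaled to a common library size, here by TMM) in B6, 4791 to 4937 in B6-13D2, 3087 to 3124 in D2 and 3559.8 to 3579.8 in D2-13B6. The 6 fibroblast markers (Col1a1, Col1a2, Col3a1, Thy1, Pdgfrb, Lum), genes that feeder cells also express, were all detected as well. They summed to 9296 to 10109 CPM in B6, 3068 to 3154 in B6-13D2, 13989 to 16788 in D2 and 7612 to 7944 in D2-13B6, most of it Col1a1 and Col1a2; feeder cells are not mentioned in the protocol. The markers of primitive endoderm, trophoblast, neuroectoderm and mesoderm summed to at most 86.5 CPM in any library, and none of the markers on any list was at 0 in a whole group. In bulk samples, fewer cells of a type and less RNA per cell cannot be told apart. The part of these differences in the results below was not tested. In the deposited table the names of the 6 congenic columns have a prefix that the other 6 do not have; if it marks a batch, that batch and the difference between congenic and parental lines cannot be told apart.

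The promoter windows of 5 members are shown, picked for their levels. The members are Suv39h2 and Cbx5, whose levels across libraries were alike, Ehmt2 and Cbx3, which moved with the segment, and Cbx1, which moved most. No result below rests on these windows. Each runs from 250 bases before to 50 bases after a transcript start in RefSeq on GRCm38.p6, 5′ to 3′ along the gene. Capitals mark matches, on either strand, to GCGC, any pair of bases and GCGC (an NRF1 motif), to AAGATGG followed by CGG (a YY1 motif), to TGACGTCA (the CREB motif) and to CACGTG (an E-box).
Suv39h2 (chr2:3474937-3475236, minus strand): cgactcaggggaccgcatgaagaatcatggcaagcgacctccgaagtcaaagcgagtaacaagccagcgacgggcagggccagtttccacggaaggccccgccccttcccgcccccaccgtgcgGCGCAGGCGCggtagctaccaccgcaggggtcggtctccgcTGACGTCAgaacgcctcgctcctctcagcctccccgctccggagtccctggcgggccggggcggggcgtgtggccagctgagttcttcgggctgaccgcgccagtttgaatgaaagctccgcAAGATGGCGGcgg
Cbx5 (chr15:103239803-103240102, minus strand): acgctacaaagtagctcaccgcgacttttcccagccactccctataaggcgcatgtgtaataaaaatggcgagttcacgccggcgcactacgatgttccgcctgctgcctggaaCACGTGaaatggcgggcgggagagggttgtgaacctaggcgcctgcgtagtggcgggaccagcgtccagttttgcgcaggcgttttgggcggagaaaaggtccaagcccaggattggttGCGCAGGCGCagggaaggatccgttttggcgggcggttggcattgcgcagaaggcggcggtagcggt
Ehmt2 (chr17:34898224-34898523, plus strand): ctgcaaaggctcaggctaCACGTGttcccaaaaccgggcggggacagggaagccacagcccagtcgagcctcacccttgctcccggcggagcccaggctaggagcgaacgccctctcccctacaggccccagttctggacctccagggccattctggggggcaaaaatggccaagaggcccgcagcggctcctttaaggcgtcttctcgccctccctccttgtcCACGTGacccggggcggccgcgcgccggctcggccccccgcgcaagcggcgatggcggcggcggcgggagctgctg
Cbx3 (chr6:51470366-51470665, plus strand): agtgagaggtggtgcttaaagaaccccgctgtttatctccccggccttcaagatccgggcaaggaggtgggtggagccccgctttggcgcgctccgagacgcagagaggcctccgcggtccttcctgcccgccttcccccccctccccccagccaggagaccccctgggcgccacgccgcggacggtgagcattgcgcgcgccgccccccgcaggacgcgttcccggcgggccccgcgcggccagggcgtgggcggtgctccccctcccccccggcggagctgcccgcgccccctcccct
Cbx1 (chr11:96788885-96789184, plus strand): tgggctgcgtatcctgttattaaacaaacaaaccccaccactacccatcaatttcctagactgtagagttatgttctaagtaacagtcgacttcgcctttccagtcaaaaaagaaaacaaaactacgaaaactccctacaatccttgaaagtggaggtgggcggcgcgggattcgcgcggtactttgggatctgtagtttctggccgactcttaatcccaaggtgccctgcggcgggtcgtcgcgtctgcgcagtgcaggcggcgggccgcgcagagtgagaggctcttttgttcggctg

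RefSeq gave 14 windows for the 10 members. The NRF1 letters were found in 4 of the 14 windows, against 6.23% of all 32851 promoter windows of that length. Suv39h1, Suv39h2, Ehmt1 and Cbx5 had 1 such window each. The YY1 letters occurred in 2 of the 14 windows, of Suv39h1 and Suv39h2 (0.852% of all windows). The CREB letters occurred in 1 window, of Suv39h2 (1.79%), and the E-box letters in 3, of Ehmt2 and Cbx5 (7.15%). The printed windows of Cbx1 and Cbx3 held none of these letters. The GC box letters GGGCGG, bound by Sp and KLF factors, stood in 13 of the 14 windows against 35.7% of all windows, and CCAAT, the NF-Y letters, in 4 of 14 against 37.4%; these are not marked, and a match of one motif can share bases with a match of another. The member windows held 52.7% to 82.7% G and C, against a median of 52.7% over all windows, and the part of this in the shares of these GC-rich letters was not tested. The matches are descriptions of letters, not binding sites. Of the members with the NRF1 letters, Suv39h2 and Cbx5 had a Pearson r of 0.948 across libraries, and Suv39h1 and Ehmt1 had -0.88. Whether shared letters go with like levels was not tested.

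Levels of different genes are ordered here per kilobase of merged exon (CPM per kb); ratios of counts of a pair of genes, given further on, are not corrected for length and are compared between groups. Trim28 was the highest member in every group, with means from 428 to 452 CPM per kb. Next came the HP1 genes and Ehmt2, with Cbx1 at 26.9 to 49.7, Cbx3 at 28.4 to 46.9 and Cbx5 at 38.7 to 47.6 CPM per kb. Ehmt2 had means of 29.3 to 37.4 and Setdb1 of 15.5 to 20.7 CPM per kb. Ehmt2 was below all HP1 genes in B6 and B6-13D2, above Cbx1 (26.9) and Cbx3 (31.5) in D2, at 33.4, and above Cbx3 (28.4) in D2-13B6, at 29.3. Ehmt1 (8.53 to 10.6), Suv39h2 (5.88 to 7.97), Atf7ip (6.27 to 6.93) and Suv39h1 (4.16 to 5.38) were the lowest. The merged exons of Atf7ip span 20726 bases over 12 annotated transcripts, which lowers its level per length.

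Against this order of levels, the changes between groups were small. Over the 10 members, the median size of the log2 fold change was 0.20 between the strains (D2 against B6), 0.18 for the D2 segment on the B6 background (B6-13D2 against B6) and 0.14 for the B6 segment on the D2 background (D2-13B6 against D2). Over all 17148 tested genes it was 0.33, 0.32 and 0.31. Most of these small changes still exceeded the spread between libraries of a group, as they did for most tested genes. A gene is said here to have changed where edgeR's quasi-likelihood test, fitted to all 12 libraries, gave a Benjamini-Hochberg adjusted p under 0.05 over all tested genes. In D2 against B6, 7 of 10 members changed, 3 higher and 4 lower in D2, against 60.0% of all tested genes (29.8% higher, 30.3% lower). In B6-13D2 against B6, 7 of 10 changed, 6 higher and 1 lower, against 58.3% of all genes (25.4% higher, 32.9% lower). In D2-13B6 against D2, 5 of 10 changed, 3 higher and 2 lower, against 57.3% (27.6% higher, 29.7% lower). The share of members that changed was thus close to that of all genes in all 3 comparisons in this setting. With RLE size factors, library totals alone or DESeq2, 9 of 10 members changed in D2 against B6 (5 higher, 4 lower). The same held with a mean CPM of at least 1. In B6-13D2 against B6, 8 changed with the first 3 settings (7 higher, 1 lower). In D2-13B6 against D2, library totals alone gave 5 higher and 1 lower, and a mean CPM of at least 1 gave 3 of each. Shares of all genes in these settings are not given here. Libraries of the groups compared did not overlap for 8, 7 and 7 of the 10 members in these comparisons, against 62.0%, 63.2% and 62.9% of all tested genes. The first 2 comparisons share the B6 libraries, and the first and the last share the D2 libraries.

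**Figure D1:**
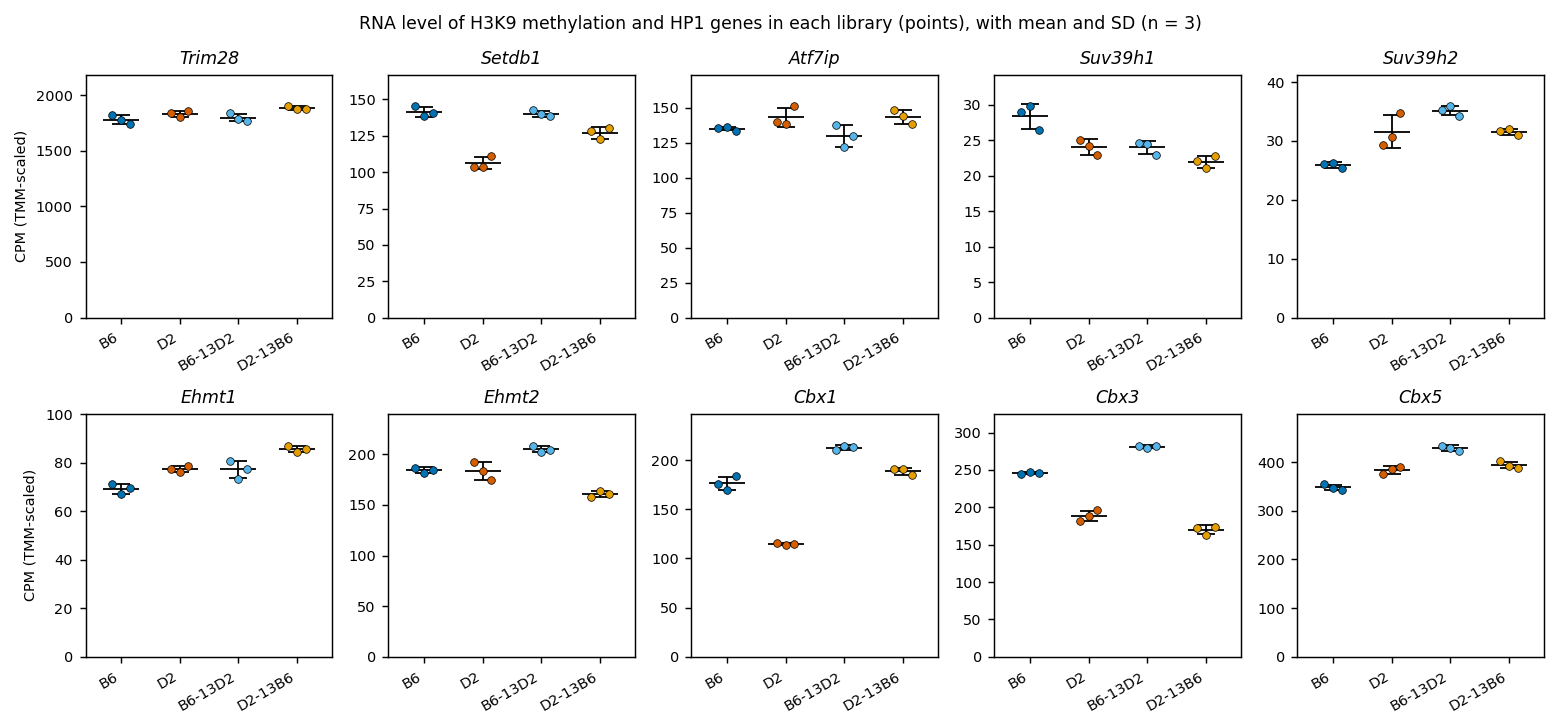
RNA level of each member in CPM (TMM-scaled, linear axis from 0) in the 12 libraries. Points are libraries, horizontal lines the group mean and bars the SD (n = 3). Trim28 and Atf7ip are nearly level across groups, Setdb1 and Cbx1 are lowest in D2, and Cbx3 is lower in both groups with the D2 background than in both with the B6 background.

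TRIM28 (KAP1) is the corepressor that links zinc finger proteins to the silencing enzymes. Trim28 (ENSMUSG00000005566, chr7:12999114-13031035) had 1822, 1777 and 1739.8 CPM in B6, 1835, 1789 and 1769.9 in B6-13D2, 1837, 1798 and 1856 in D2, and 1899, 1873 and 1869.9 in D2-13B6. The groups overlapped except that every D2-13B6 library lay above the others. On the log2 scale, D2 differed from B6 by 0.04 ± 0.03 (SE; edgeR adjusted p = 0.249), B6-13D2 from B6 by 0.01 ± 0.03 (0.69) and D2-13B6 from D2 by 0.04 ± 0.03 (0.267). Other scalings put D2 against B6 past the threshold: the log2 fold change was 0.094 with RLE size factors (adjusted p = 0.0101) and 0.094 with DESeq2, beside a shift of 0.05 in the median of all genes. B6-13D2 against B6 also passed, at 0.091 with library totals alone (0.0153), 0.078 under RLE (0.0279) and 0.078 under DESeq2 (0.00829), and D2-13B6 against D2 passed with library totals alone, at 0.106 (0.00606).

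SETDB1 is the enzyme recruited by TRIM28 that trimethylates H3K9, and ATF7IP is the cofactor that stabilises it. Setdb1 (ENSMUSG00000015697, chr3:95323525-95357202) had 145, 139 and 141 CPM in B6, 142, 139.9 and 138 in B6-13D2, 128, 123 and 131 in D2-13B6, and 104, 104 and 111 in D2. The D2 libraries lay below all others, the D2-13B6 libraries between D2 and both groups with the B6 background, and these last 2 groups overlapped. Setdb1 was 0.749 times as high in D2 as in B6 (log2 difference -0.42 ± 0.04 SE, edgeR adjusted p = 4.51e-08) and rose by 0.26 ± 0.04 in D2-13B6 against D2 (1.18e-05). The B6-13D2 libraries differed from B6 by -0.01 ± 0.04 (adjusted p = 0.764). The Setdb1 values are not whole in any library, which shows that EMASE divided reads between it and other features; its exons share 75 bases with Cers2 and 249 bases with Gm37500 on the other strand.

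Atf7ip (ENSMUSG00000030213, chr6:136506167-136610862) did not follow Setdb1. It had 135, 136 and 134 CPM in B6, 138, 122 and 129.9 in B6-13D2, 139.7, 139 and 151 in D2, and 148, 144 and 139 in D2-13B6. The D2 and B6 libraries did not overlap, yet the difference of 0.08 ± 0.05 (SE) missed the threshold (edgeR adjusted p = 0.122). It passed with RLE size factors, where the log2 fold change was 0.136 (adjusted p = 0.0127), with library totals alone (0.0333), under DESeq2 (0.00845) and where genes needed a mean CPM of 1 (0.0144). D2-13B6 against B6 also passed in 5 other settings, at 0.109 to 0.197. The ratio of Setdb1 to Atf7ip counts within a library, which no scaling can alter, was 1.05 ± 0.03 (SD, n = 3) in B6, 1.08 ± 0.06 in B6-13D2, 0.886 ± 0.050 in D2-13B6 and 0.742 ± 0.007 in D2. The 2 groups with the B6 background overlapped in this ratio, and D2-13B6 and D2 did not.

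SUV39H1 and SUV39H2 are paralogous enzymes that trimethylate H3K9 at pericentromeric repeats. Against B6, Suv39h1 was lower and Suv39h2 higher in each of the other groups. Suv39h1 (ENSMUSG00000039231, chrX:8061171-8074760) had 28.9, 29.8 and 26.4 CPM in B6, 24.5, 24.5 and 22.9 in B6-13D2, 25.1, 24.1 and 22.9 in D2, and 22.0, 21.1 and 22.7 in D2-13B6. All B6 libraries lay above all others. It was 0.848 times as high in D2 as in B6 (log2 difference -0.24 ± 0.06 SE, edgeR adjusted p = 0.00211) and 0.847 times as high in B6-13D2 as in B6 (-0.24 ± 0.06, 0.00188). D2-13B6 differed from D2 by -0.14 ± 0.06, which missed the threshold (adjusted p = 0.056) although the groups did not overlap. It passed with a mean CPM of at least 1 required (-0.174, 0.0158) and on leaving out B6 replicate 3 (0.0395), D2 replicate 3 (0.027) or D2-13B6 replicate 3 (0.0484).

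Suv39h2 (ENSMUSG00000026646, chr2:3455815-3475031) was lowest in B6, at 26.0, 26.3 and 25.4 CPM. It had 29.4, 30.6 and 34.7 in D2, 35.2, 35.9 and 34.3 in B6-13D2, and 31.6, 32.1 and 31.1 in D2-13B6. No B6 library reached any other group, while D2 replicate 3 lay inside the range of B6-13D2. Suv39h2 was 1.21 times as high in D2 as in B6 (log2 difference 0.28 ± 0.06 SE, edgeR adjusted p = 4.07e-04) and 1.36 times as high in B6-13D2 as in B6 (0.44 ± 0.06, 2.71e-06). D2-13B6 and D2 differed by 0.01 ± 0.05 (adjusted p = 0.943). Within libraries, Suv39h2 had 0.917 ± 0.042 (SD, n = 3) times the counts of Suv39h1 in B6, 1.47 ± 0.03 in B6-13D2, 1.32 ± 0.18 in D2 and 1.44 ± 0.08 in D2-13B6, so the ratio was lowest in B6. Per length, Suv39h2 was above Suv39h1 in B6 too, at 5.88 against 5.38 CPM per kb.

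Both SUV39H genes overlap a gene on the other strand. The values of Suv39h1 were not whole in any library, and its exons share 767 bases with the antisense gene Gm14820, which had 216 to 548 counts per library against 502 to 868 for Suv39h1. The summed counts of Gm14820 over the 3 libraries were 678 in B6, 893 in B6-13D2, 952 in D2 and 1506 in D2-13B6. Exons of Suv39h2 share 357 bases with Dclre1c on the other strand, at 243 to 608 counts; the Suv39h2 values were whole in all 12 libraries. The sources used here do not say whether counting used the strand, so reads of Suv39h1 and Gm14820 cannot be told apart.

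EHMT1 (GLP) and EHMT2 (G9a) form a heterodimer that mono- and dimethylates H3K9 in euchromatin. Ehmt1 (ENSMUSG00000036893, chr2:24789928-24919614) had 71.1, 67.2 and 69.4 CPM in B6, 80.7, 73.5 and 77.5 in B6-13D2, 77.6, 76.3 and 78.4 in D2, and 87.1, 84.5 and 85.6 in D2-13B6. B6 lay below and D2-13B6 above all other libraries, and D2 and B6-13D2 overlapped. Ehmt1 was higher than in B6 by a log2 difference of 0.16 ± 0.04 (SE) both for D2 (edgeR adjusted p = 0.00233) and for B6-13D2 (0.00271), and higher in D2-13B6 than in D2 by 0.15 ± 0.04 (0.00345).

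Ehmt2 (ENSMUSG00000013787, chr17:34898469-34914052) had 187, 181 and 184 CPM in B6, 209, 202 and 205 in B6-13D2, 193, 183 and 174 in D2, and 158, 164 and 161 in D2-13B6. The parental libraries overlapped, all B6-13D2 libraries lay above them and all D2-13B6 libraries below. Ehmt2 was 1.11 times as high in B6-13D2 as in B6 (log2 difference 0.16 ± 0.04 SE, edgeR adjusted p = 0.00145) and 0.876 times as high in D2-13B6 as in D2 (-0.19 ± 0.04, 2.42e-04). D2 and B6 differed by -0.01 ± 0.04 (adjusted p = 0.913). Within libraries, Ehmt1 had 0.376 ± 0.005 (SD, n = 3) times the counts of Ehmt2 in B6, 0.376 ± 0.012 in B6-13D2, 0.423 ± 0.024 in D2 and 0.533 ± 0.018 in D2-13B6. The ratio of the dimer partners was thus level on the B6 background and highest with the B6 segment on the D2 background.

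The HP1 genes encode the readers of the mark: Cbx5 encodes HP1α, Cbx1 HP1β and Cbx3 HP1γ. HP1α and HP1β sit mainly at constitutive heterochromatin, and HP1γ is also found in euchromatin and transcribed genes. Cbx1 (ENSMUSG00000018666, chr11:96789127-96808640) had 176, 169.6 and 183 CPM in B6, 209.8, 215 and 213 in B6-13D2, 115, 114 and 115 in D2, and 190.5, 191 and 185 in D2-13B6. No pair of groups overlapped, and D2 stood far below the others. D2 also had the lowest summed stem cell markers and the highest summed fibroblast markers. From low to high, Cbx1 ran D2, B6, D2-13B6 and B6-13D2, the reverse of the order of the summed fibroblast markers. The part of these markers in the Cbx1 levels was not tested. Cbx1 was 0.652 times as high in D2 as in B6 (log2 difference -0.62 ± 0.03 SE, edgeR adjusted p = 8.96e-11), 1.21 times as high in B6-13D2 as in B6 (0.27 ± 0.03, 2.11e-06) and 1.64 times as high in D2-13B6 as in D2 (0.72 ± 0.03, 1.01e-11). The last is the largest change of any member in these 3 comparisons.

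The rise of Cbx1 in D2-13B6 against D2 stood beside a shift of its whole chromosome. The median log2 fold change of the 1386 tested genes of chromosome 11 was 0.39 in that comparison, 0.42 above the median of the other autosomes, and within 5 Mb of Cbx1 the median of 209 tested genes was 0.37. Cbx1 stood 0.32 above the median of its chromosome, and 310 genes of chromosome 11 had a higher value. In D2 against B6 the median of chromosome 11 was 0.01, and in B6-13D2 against B6 it was -0.00, against -0.62 and 0.27 for Cbx1. The part of this shift in the Cbx1 result, and the copy number of the chromosome in the line, were not tested. No other chromosome that holds a member had a median further than 0.15 from 0 in any of the 3 comparisons.

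**Figure D2:**
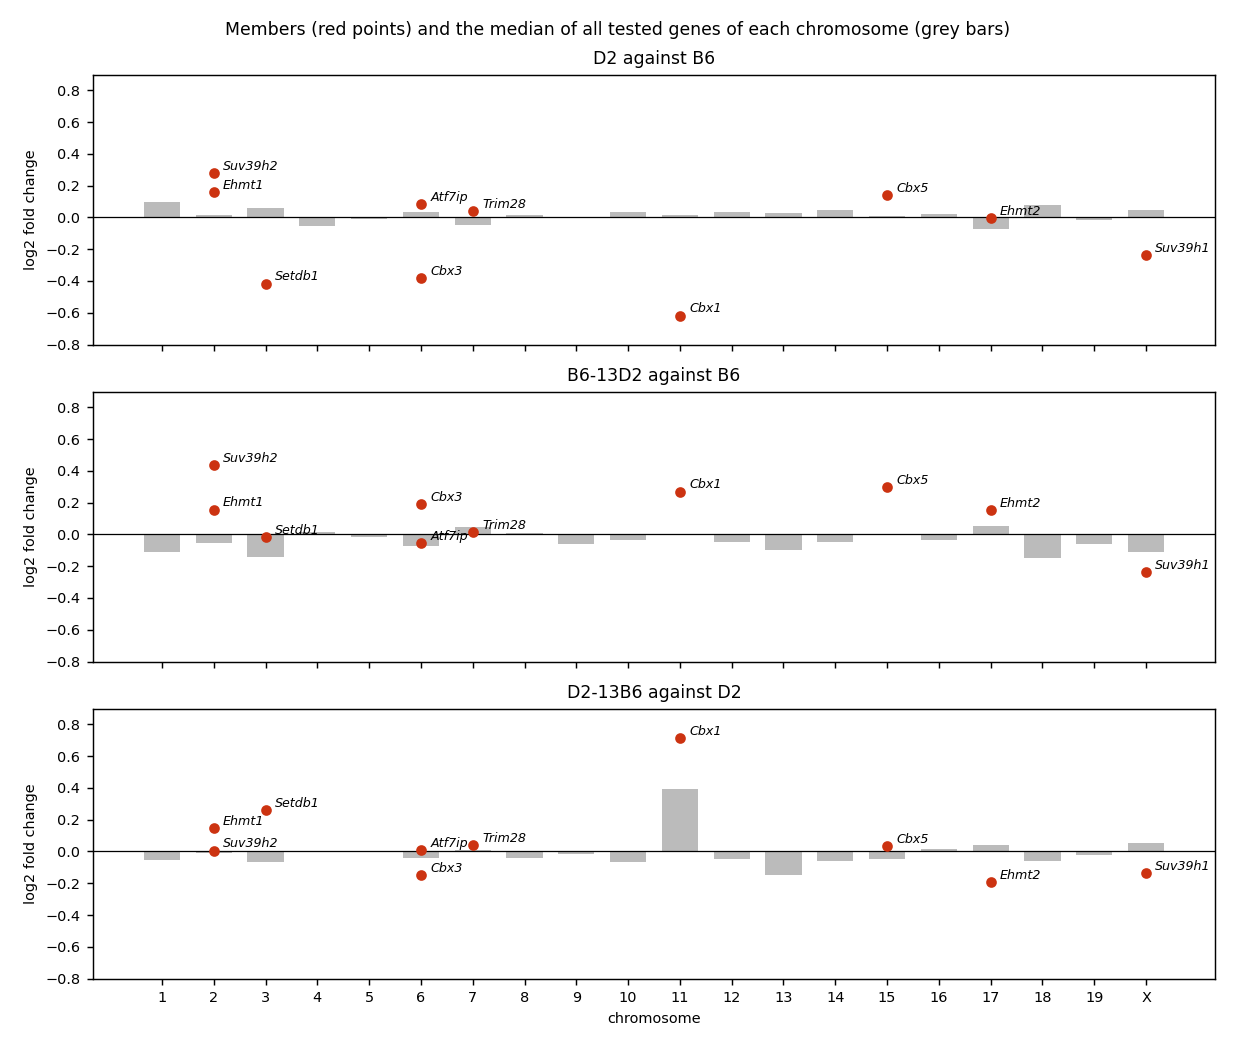
log2 fold change of each member (red points, labelled) at its chromosome, beside the median log2 fold change of all tested genes of each chromosome (grey bars), with 1 panel each for D2 against B6, B6-13D2 against B6 and D2-13B6 against D2. In D2-13B6 against D2 the median of chromosome 11 is 0.39 and Cbx1 is at 0.72; in the other panels Cbx1 stands apart from a median near 0.

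Cbx3 (ENSMUSG00000029836, chr6:51470360-51483704) had 244, 247 and 246 CPM in B6, 283, 279.5 and 281 in B6-13D2, 182, 188 and 196 in D2, and 173, 163 and 174 in D2-13B6. Both groups with the B6 background lay above both with the D2 background, and within each background the group with the D2 segment was higher, with no overlap. Cbx3 was 0.767 times as high in D2 as in B6 (log2 difference -0.38 ± 0.04 SE, edgeR adjusted p = 4.67e-08), 1.14 times as high in B6-13D2 as in B6 (0.19 ± 0.03, 1.11e-04) and 0.903 times as high in D2-13B6 as in D2 (-0.15 ± 0.04, 0.00158). With library totals alone in place of TMM factors, the last change was -0.081 and missed the threshold (edgeR adjusted p = 0.0575). Cbx3 has 8 annotated pseudogenes, 2 of them on chromosome 13; the 5 in the table summed to at most 0.517% of the Cbx3 count in any library. Its values were whole in 3 of the 12 libraries.

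Cbx5 (ENSMUSG00000009575, chr15:103191544-103239816) had 354, 348 and 343 CPM in B6, 434, 429.6 and 423 in B6-13D2, 375, 386 and 390.1 in D2, and 401, 391 and 388 in D2-13B6. B6 lay below and B6-13D2 above all others, and the 2 groups with the D2 background overlapped. Cbx5 was 1.10 times as high in D2 as in B6 (log2 difference 0.14 ± 0.03 SE, edgeR adjusted p = 7.83e-04) and 1.23 times as high in B6-13D2 as in B6 (0.30 ± 0.03, 1.57e-07). D2-13B6 and D2 differed by 0.04 ± 0.03 (adjusted p = 0.325), and by 0.103 (0.00894) with library totals alone.

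**Figure D3:**
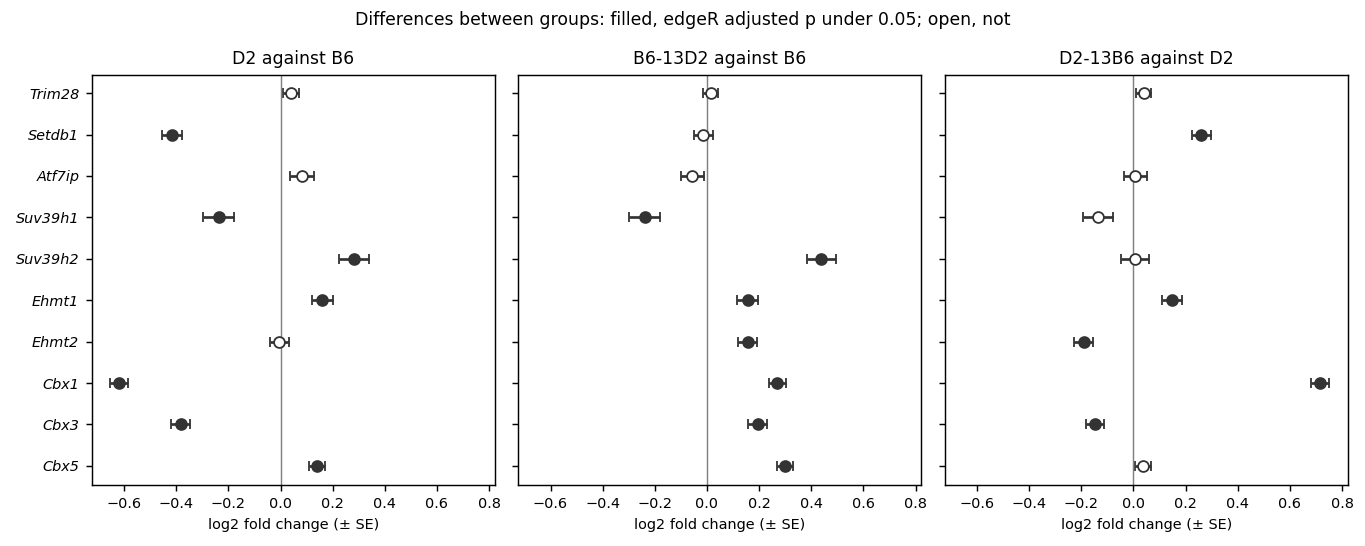
log2 fold change of each member (point, with its SE as bar), from left to right D2 against B6, B6-13D2 against B6 and D2-13B6 against D2; filled points have an edgeR adjusted p under 0.05. Cbx1 holds the extreme values on the left (-0.62) and right (0.72), and Cbx5, Cbx3 and Cbx1 are all higher in B6-13D2 than in B6.

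The make-up of the HP1 transcripts differed between the groups. Of the summed level per length of the 3 HP1 genes, Cbx1 held 34.1% ± 1.0 (SD, n = 3) in B6, 34.5% ± 0.4 in B6-13D2, 26.6% ± 0.6 in D2 and 38.0% ± 0.7 in D2-13B6. Cbx3 held 33.9% ± 0.5, 32.5% ± 0.2, 31.2% ± 0.6 and 24.4% ± 0.8 in the same order, and Cbx5 held 32.0% ± 0.7, 33.0% ± 0.3, 42.2% ± 0.2 and 37.6% ± 0.2. The B6 and B6-13D2 shares thus lay close to each other for each gene, while Cbx5 was the largest share in D2 and Cbx1 and Cbx5 were the larger shares in D2-13B6. The ratio of Cbx1 to Cbx3 counts was 0.717 ± 0.030 in B6, 0.756 ± 0.013 in B6-13D2, 0.610 ± 0.024 in D2 and 1.11 ± 0.05 in D2-13B6. The ratio of Cbx3 to Cbx5 counts was 0.706 ± 0.015, 0.656 ± 0.008, 0.491 ± 0.009 and 0.433 ± 0.015 in that order. An exact permutation test of 3 libraries against 3 cannot go below p = 0.1, so these ratios are given with their spread and no p. Cbx1 lies on chromosome 11, whose median log2 fold change was 0.39 in D2-13B6 against D2. The part of that shift in the shares and ratios of D2-13B6 was not tested.

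**Figure D4:**
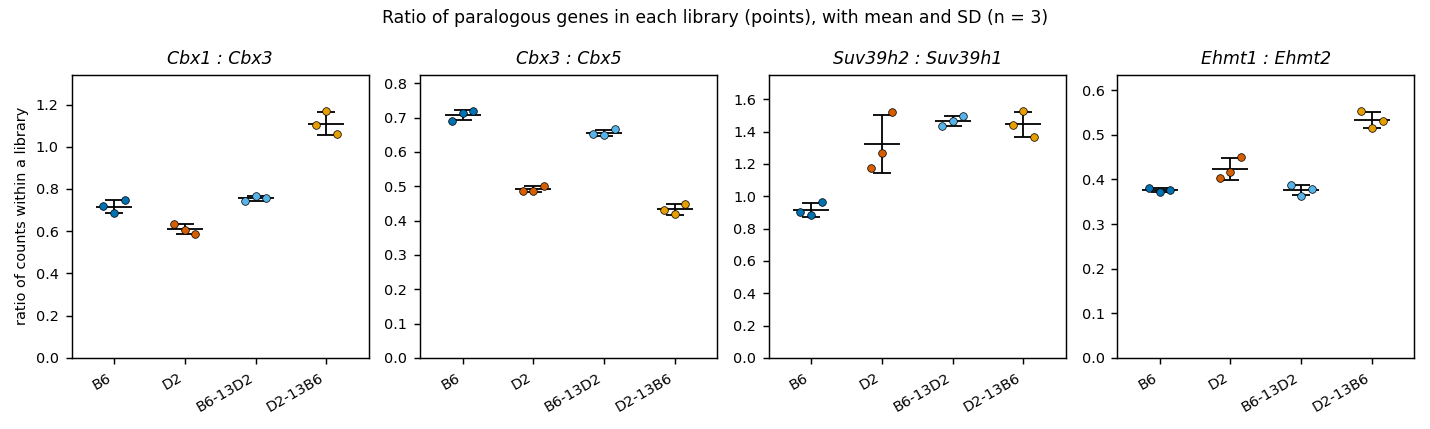
Ratio of the counts of paralogous members within each library (points), with group mean and SD (n = 3), on linear axes from 0. The counts are not corrected for length, so groups can be compared and the value 1 has no meaning. The ratio of Cbx1 to Cbx3 is highest in the D2-13B6 libraries, and the ratio of Suv39h2 to Suv39h1 is lowest in the B6 libraries. Cbx1 lies on chromosome 11, whose median log2 fold change was 0.39 in D2-13B6 against D2.

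The segment can be read on both backgrounds, since B6-13D2 against B6 and D2-13B6 against D2 share no library. Ehmt2 and Cbx3, 2 of the 10 members, followed the segment allele: both were higher with the D2 segment on each background. Of all tested genes, 7.33% did so in either direction. Averaged over both backgrounds, the D2 segment went with a log2 difference of 0.17 ± 0.03 (SE) for Ehmt2 (edgeR adjusted p = 3.52e-05) and 0.17 ± 0.02 for Cbx3 (2.37e-05). In this averaged comparison 6 members changed, 4 higher and 2 lower with the D2 segment, against 43.9% of all genes (16.5% higher, 27.3% lower). The others were Suv39h2 (0.22), Cbx5 (0.13), Setdb1 (-0.14) and Cbx1 (-0.22, with the median of chromosome 11 at -0.19), none of which passed the test in the same sense on both backgrounds. With library totals alone Cbx3 left the group that followed the segment allele, and Ehmt2 remained.

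Ehmt1 and Cbx1 were instead higher in each congenic line than in the strain of its background; a change of the same sign in both is one that 32.2% of all tested genes had. The segment effect on the B6 background differed from that on the D2 background for 6 members, 5 with a positive and 1 with a negative difference, against 64.5% of all genes (31.1% positive, 33.4% negative). Other scalings added Trim28, at 0.119 under RLE (adjusted p = 0.0169), 0.119 under DESeq2 (0.00357) and 0.197 with library totals alone (5.74e-04), and Cbx3, at 0.111 under DESeq2 (0.0463) and 0.189 with library totals alone (0.00267). Cbx1 had the largest such difference, 0.99 ± 0.05 (SE; edgeR adjusted p = 4.61e-12), beside a median of 0.41 for chromosome 11; Cbx1 stood 0.58 above that median. This contrast equals both congenic lines minus both parental strains, so anything all congenic libraries share, such as a batch, cannot be told apart from it.

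Where the segment was the same, the backgrounds could be compared. In B6-13D2 against D2, which share the D2 segment, 7 of 10 members changed, 6 higher and 1 lower, against 74.6% of all genes (36.7% higher, 38.0% lower). Libraries of the groups did not overlap for 6 members, against 75.5% of all genes. The lower one was Atf7ip, whose call was lost with library totals alone (-0.102, adjusted p = 0.0587). The largest difference was that of Cbx1, 0.89 ± 0.03 (SE; edgeR adjusted p = 8.55e-14), followed by Cbx3 at 0.58 ± 0.03 and Setdb1 at 0.40 ± 0.04. In D2-13B6 against B6, which share the B6 segment, 9 of 10 changed, 5 higher and 4 lower, against 59.0% (24.5% higher, 34.6% lower). Here all 10 members showed no overlap between the groups, against 65.2% of all genes. Cbx3 had the lowest value, -0.53 ± 0.04 (6.13e-10), and Ehmt1 the highest, 0.31 ± 0.04 (2.90e-06). Setdb1 was lower in D2-13B6 than in B6 by -0.16 ± 0.04 (0.00163), and Cbx1 was higher by 0.10 ± 0.03 (0.0191), beside a median of 0.29 for chromosome 11 in this comparison, from which Cbx1 differs by -0.20. Library totals alone brought Setdb1 to -0.049 (0.289) and Ehmt2 from -0.20 to -0.089 (0.0525) in that comparison. The calls of Cbx1 and of Trim28 (0.08 ± 0.03, 0.0267) in it were lost on leaving out single libraries: without B6 replicate 2, Cbx1 stood at 0.068 (0.124), and without B6 replicate 3, Trim28 stood at 0.060 (0.1).

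Between the congenic lines themselves, 9 of 10 members changed, 2 higher and 7 lower in D2-13B6, against 70.2% of all genes (38.4% higher, 31.8% lower), and no member overlapped between the groups (10 of 10, against 74.9%). Cbx3 was 0.605 times as high in D2-13B6 as in B6-13D2 (log2 difference -0.72 ± 0.03 SE, edgeR adjusted p = 3.32e-12) and Ehmt2 was 0.784 times as high (-0.35 ± 0.04, 1.15e-07). Ehmt1 (0.15) and Atf7ip (0.15) were higher in D2-13B6, the latter not without B6-13D2 replicate 2 (0.0658). The Suv39h1 difference of -0.13 ± 0.06 (0.0481) was lost with DESeq2 (0.0774) and without the filter on low counts (0.0813), and also without single libraries, as without D2-13B6 replicate 2 (0.161). Cbx1 and Cbx3 were the members that changed in all 6 comparisons between groups, which 15.0% of all tested genes did.

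Cbx3 and Cbx5 each start close to a gene on the other strand that encodes an RNA-binding protein of the hnRNP family. Hnrnpa2b1 starts 722 bases from Cbx3. It was lower in D2 than in B6 (log2 difference -0.35 ± 0.04 SE, edgeR adjusted p = 5.08e-07), had 0.05 ± 0.04 (0.239) in B6-13D2 against B6 and was higher in D2-13B6 than in D2 by 0.16 ± 0.04 (0.00204). The middle comparison passed under DESeq2 (0.118, 0.00498), RLE size factors (0.118, 0.0135), library totals alone (0.131, 0.00368), a mean CPM of at least 1 (0.093, 0.033) and without B6 replicate 3 (0.105, 0.0164). In the last comparison Cbx3 was lower (-0.15), so the neighbours had opposite signs there. Hnrnpa1 starts 545 bases from Cbx5 and had -0.67 ± 0.05 (1.09e-09), 0.28 ± 0.05 (3.54e-05) and 0.23 ± 0.05 (3.02e-04) in the 3 comparisons, against 0.14, 0.30 and 0.04 for Cbx5. Its values were not whole in any library.

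The genes whose log2 CPM was most like that of a member over the 12 libraries were taken by Pearson r among the 11643 genes whose mean log2 CPM reached 2, as a description over libraries that share 4 groups. For Suv39h2 the closest gene was another member, Cbx5 (r = 0.948). For Cbx1 the closest genes were Hap1 (0.996), also on chromosome 11, and Luc7l (0.994). For Setdb1 they were Dicer1 (0.987) and Haus6 (0.981), for Cbx3 Poc1b (0.995) and 2810004N23Rik (0.995), for Ehmt2 Phgdh (0.983) and Mmab (0.977), and for Cbx5 Gnpat (0.973) and 1700037H04Rik (0.972). Ehmt1 was most like Tacc1 (0.965) and Arrb1 (0.961), Suv39h1 most like Vps45 (0.955) and Fam83h (0.946), Atf7ip most like Casp6 (0.911) and Ccdc88a (0.888), and Trim28 most like Zcchc2 (0.900) and Uggt2 (0.894). Between members, the most negative value was that of Suv39h1 and Ehmt1 (r = -0.88), and Setdb1 and Atf7ip, whose proteins act as a complex, had r = -0.53.

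A list of 28 further genes of the pathway held more methyltransferases, cofactors of SETDB1 and G9a, other TRIM and CHD corepressors, the SUMO genes, readers, and the zinc finger proteins Zfp57 and Zfp809; 27 were tested. Between the strains 19 changed, 5 higher and 14 lower in D2, beside 60.0% of all tested genes (29.8% higher, 30.3% lower). In B6-13D2 against B6 it was again 19, 8 higher and 11 lower, beside 58.3% (25.4% and 32.9%), and in D2-13B6 against D2 also 19, 11 higher and 8 lower, beside 57.3% (27.6% and 29.7%). Their median log2 fold change was -0.16, 0.01 and 0.08, beside 0.01, -0.04 and 0.00 for all tested genes.

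Zfp57, which holds methylation at imprinted regions through TRIM28, had 508, 506 and 510 CPM in B6, 339, 359 and 346 in B6-13D2, 269, 257 and 291 in D2, and 425, 438 and 432 in D2-13B6, with no overlap between any groups. It was lower in D2 than in B6 (log2 difference -0.90 ± 0.04 SE, edgeR adjusted p = 3.42e-12) and higher in D2-13B6 than in D2 (0.67 ± 0.04, 1.59e-10). Zfp809, which targets a class of retroviruses, was higher in D2 than in B6 (0.68 ± 0.07, 4.14e-07). Trim66, a relative of Trim28, was low throughout, with means of 1.92 to 6.26 CPM, and was higher in D2 (1.71 ± 0.13, 5.47e-09) and in B6-13D2 (0.90 ± 0.14, 2.54e-05) than in B6. Prdm16, a methyltransferase of the PRDM family, was lower in D2 than in B6 (-1.33 ± 0.11, 1.54e-08). Atf7ip2, the paralogue of Atf7ip, was higher in D2-13B6 than in D2 (0.60 ± 0.08, 5.67e-06), and Uhrf1, which links H3K9 methylation to the upkeep of DNA methylation, was higher in B6-13D2 than in B6 (0.68 ± 0.04, 1.55e-11).

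Of this list, Mecom and Chd3 had the largest falls in the congenic lines. Mecom, a PRDM-type factor, had means of 41.6 ± 4.3 CPM (SD, n = 3) in B6, 9.99 ± 0.56 in B6-13D2, 61.4 ± 3.0 in D2 and 22.7 ± 1.2 in D2-13B6. It fell by 2.06 on the log2 scale in B6-13D2 against B6 (edgeR adjusted p = 2.09e-13) and by 1.44 in D2-13B6 against D2 (5.63e-12). Chd3, a helicase of the NuRD complex that TRIM28 binds, fell by 1.06 (8.57e-12) and 0.76 (5.61e-10) in the same comparisons. It lies on chromosome 11, whose median was 0.39 in D2-13B6 against D2. The summed fibroblast markers had the same order of groups, lowest in B6-13D2, then D2-13B6, B6 and D2, and their part in these changes was not tested.

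A second list held 11 genes known to be derepressed when TRIM28, SETDB1 or G9a is lost, mostly of the germ line; 8 were tested. Of these, 4 (Magea2, Magea5, Magea8 and Wfdc15a) passed the filter on low counts only through D2-13B6, where they are high, so their calls are not counted here. Of the other 4 (Bglap3, Dazl, Taf7l and Mael), all changed in D2 against B6, 1 higher and 3 lower, beside 60.0% of all tested genes. In B6-13D2 against B6, 3 changed, 1 higher and 2 lower, beside 58.3%. In D2-13B6 against D2 all 4 were higher, beside 27.6% of all tested genes called higher. Taf7l passed only narrowly there (log2 difference 0.64 ± 0.26 SE, edgeR adjusted p = 0.0466). The 4 genes that the filter kept through D2-13B6 rest on very few reads in the other groups: the 3 B6 libraries together held 0 counts of Magea2 and 1 count each of Magea5, Magea8 and Wfdc15a. Against a floor of 3 counts over the group, Magea2 (7 counts in D2) was at least 1.99-fold higher in D2. The D2 to B6 ratio was 23.0 (95% counting interval 3.80 to 943) for Magea5, 31.6 (5.33 to 1280.2) for Magea8 and 6.83 (0.915 to 303) for Wfdc15a. The calls of Magea2 and Wfdc15a in edgeR were lost without single libraries, the adjusted p reaching 0.0579 without D2 replicate 3 for Magea2 and 0.147 without B6 replicate 3 for Wfdc15a, which lost its call in 9 of the 12 such fits.

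In D2-13B6 the sums were 69 counts for Magea2, 253 for Magea5, 168 for Magea8 and 76 for Wfdc15a. Dazl, a germ cell RNA-binding protein, had 39.3, 39.5 and 37.5 CPM there, against 10.4, 11.8 and 9.83 in D2, 15.3, 17.5 and 17.2 in B6 and 15.5, 16.2 and 15.4 in B6-13D2. D2-13B6 lay above all other groups, with a log2 fold change of 1.85 ± 0.07 (SE) against D2 (edgeR adjusted p = 2.91e-13). Bglap3 was higher in B6-13D2 than in B6 (2.45 ± 0.17, 7.14e-10), while Taf7l (-1.73 ± 0.28, 3.12e-05) and Mael (-0.61 ± 0.13, 5.55e-04) were lower. The Magea genes are near-identical copies among which EMASE divides reads, and their values are uncertain for that reason.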

How the data were processed

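RNA of 12 libraries was measured by mRNA sequencing with 150 bp paired-end reads, per the labels' protocols. The authors deposited expected counts, which estimate reads per Ensembl gene and need not be whole; they are EMASE output, as the title of the file says, and EMASE splits reads that map to several genes, so near-identical genes can exchange reads. The submitters' processing notes name Bowtie 1.0.0, edgeR 3.34.1 and mm10, with no role given; the annotation and any strand setting are not given in the sources used here. Symbols and positions come from GENCODE M21 (GRCm38), in which 42462 of 43346 IDs were found and 884 were not. Of all values, 88.1% were whole to within 1e-06. Every column mapped to a library.

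The expected counts, once rounded, went into edgeR 4.0.16 under R 4.3.3. Genes were kept by filterByExpr at a minimum count of 10, libraries scaled by TMM, and 1 mean per group fitted by quasi-likelihood, with Benjamini-Hochberg adjustment over 17148 genes at 0.05. A standard error is the absolute log2 fold change over the square root of F. Groups and replicate numbers come from the sample titles. Alternatives were RLE factors, library totals alone, DESeq2 1.42.0, a mean CPM of at least 1, no filter, a replicate block, the compared libraries alone, and leaving out each library. On simulated counts for D2 against B6 (16817 genes), edgeR recovered 70 of 100 genes changed 1.5-fold and 72 of 100 changed 2-fold, with 11 false calls. Only these genes were changed in the simulation, whereas 60.0% of tested genes changed in the data. The figures therefore do not give the recovery or the false calls of the tests reported here. Within groups, libraries correlated across genes with r from 0.994 to 0.997, and no pair agreed within sampling noise.

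The members and lists were chosen with earlier results of these data known. All members are named; of the further lists, the 4 largest absolute changes among genes that passed in each of the first 3 comparisons; and for each member the 2 most similar genes, of which 1 is not reported here. Counting intervals cover counting error only, as PCR copies of a molecule were not marked.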

Additional observations from a re-analysis of the deposited data

Results flagged for a closer look

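The effect of the D2 segment differed between the backgrounds, by edgeR's test of the difference itself, for 6 of the 10 members. The log2 effect on the B6 background minus that on the D2 background was 0.99 for Cbx1, 0.44 for Suv39h2, 0.34 for Cbx5, 0.30 for Ehmt1, 0.25 for Setdb1 and -0.37 for Suv39h1. Among the named genes of the further pathway list it was 0.84 for Uhrf1, 0.75 for Atf7ip2, -1.81 for Chd3 and -3.50 for Mecom. Cbx1 and Chd3 lie on chromosome 11, whose median was 0.41 in this contrast. Among the named genes of the list of silenced genes it was 4.15 for Bglap3, 1.76 for Dazl and -1.09 for Taf7l. The fitted value of 4.66 for Magea5 is no measured size: the gene passed the filter only through D2-13B6, and it had 1 count in B6 and 5 in B6-13D2. Of all tested genes, 64.5% had such a difference, and the contrast cannot be told apart from anything that sets all congenic libraries against all parental ones. Groups of 3 libraries were too small for the search for single libraries that stand apart.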

How the results depend on the processing

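Of 102 counts of changed genes under other settings, 98 stayed within 1.5 times the count in the main setting. The 4 others were 1 member following the segment allele with library totals alone, and 3 counts of the list of silenced genes, which went from 8 to 4: in D2 against B6 with a mean CPM of at least 1 and with the compared libraries alone (4 each), and in D2-13B6 against D2 with that same minimum of CPM (4). The 4 genes lost there are those not counted in the report, which are then not tested. Without each library in turn, the members changed numbered 7 to 7 in D2 against B6 and in B6-13D2 against B6, 5 to 6 in D2-13B6 against D2, 6 to 7 in B6-13D2 against D2, and 7 to 9 in D2-13B6 against B6 or B6-13D2; the following members stayed at 2. Wfdc15a in D2 against B6 lost its call in 9 of 12 fits that left out 1 library, under DESeq2 (0.0779) and without the filter (0.0911), and Magea2 without any single B6 library or D2 replicate 3. Suv39h2 in B6-13D2 against D2 lost its call without D2 replicate 2 (0.0664), and Atf7ip there without D2 replicate 3 (0.0514) or B6-13D2 replicate 2 (0.0766).

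The signs that turned were all of log2 fold changes near 0 that missed the threshold in edgeR's main setting. Under RLE, library totals, DESeq2 and a mean CPM of at least 1, Ehmt2 in D2 against B6 became 0.048, 0.035, 0.048 and 0.046. Setdb1 in B6-13D2 against B6 became 0.049 (RLE and DESeq2), 0.062 (totals), 0.0047 (no filter), 0.024 (mean CPM of at least 1) and 0.022 (compared libraries alone), and Atf7ip there 0.0074 (RLE and DESeq2) and 0.021 (totals). With a mean CPM of at least 1, D2-13B6 against D2 gave -0.031 for Atf7ip, -0.033 for Suv39h2 and -0.0016 for Cbx5. In B6-13D2 against D2, Trim28 became 0.011 (totals), Suv39h1 0.0077 (RLE), 0.034 (totals), 0.0078 (DESeq2) and 0.017 (no filter), and Ehmt1 0.0061 (RLE), 0.033 (totals), 0.0062 (DESeq2) and 0.016 (no filter). Averaged over backgrounds, Trim28 became 0.018 (RLE and DESeq2) and 0.026 and Atf7ip 0.0069 (both with a mean CPM of at least 1). In the difference between backgrounds, Atf7ip became 0.016 (RLE and DESeq2) and 0.095 (totals), and Ehmt2 0.029 (RLE and DESeq2), 0.108 (totals) and 0.0034 (no filter). Leaving out single libraries, the range was -0.040 to 0.029 for Ehmt2 in D2 against B6, -0.027 to 0.0051 for Setdb1 in B6-13D2 against B6, -0.020 to 0.042 for Atf7ip and -0.025 to 0.068 for Suv39h2 in D2-13B6 against D2, -0.032 to 0.043 for Suv39h1 and -0.034 to 0.035 for Ehmt1 in B6-13D2 against D2, -0.010 to 0.024 for Ehmt1 averaged over backgrounds, and -0.072 to 0.031 for Ehmt2 in the difference. Library totals alone moved the median of all genes by 0.11 in D2-13B6 against B6 and by 0.14 in the difference.

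Replicate numbers did not pair the libraries: deviations of same-numbered libraries had a mean correlation of -0.0088 over 18 pairs (-0.149 to 0.087, none above 0.1), and 5 of 12 libraries correlated best with their own number. With the replicate number as a block, 7, 7 and 5 members changed in the first 3 comparisons, as without it, and no member's call differed; Wfdc15a in D2 against B6 passed no more (adjusted p = 0.0656). Depth limits the Magea genes and Wfdc15a, at 0 or 1 counts in B6; all members had at least 502 counts in every library.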
